A study of Solanum lycopersicum with 17 samples.

Results

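Maturation of floral buds was followed in a male-sterile tomato line, ms1035, by comparing 3 libraries of stage 3 buds with 3 libraries of stage 1 buds. These 6 libraries were chosen by their labels and are 6 of the 17 in the series. The measure was the number of reads assigned to each gene, with non-unique assignments included. All 6 were made from RNA of floral buds that the labels call male sterile, extracted with TRIzol. The labels number the stages without defining them, and they name no treatment and no plant age. The study set this line beside a male-fertile line, T-1082, sampled at the same 3 stages. Fertile buds entered here with 3 libraries at stage 3 and 2 at stage 1, whose replicate numbers are 2 and 3, and sterile buds of stage 2 entered with 3 libraries. The labels call the libraries biological replicates, and p-values measure only the spread between these samples.

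A flower bud first forms its organs by cell division and then enlarges them by cell expansion, while petals gain pigment and the epidermis gains cuticle. In the anther, the tapetum, a cell layer around the pollen mother cells, feeds the developing pollen, and lines that lack a working tapetum make no viable pollen. Jasmonate, a hormone made from membrane lipids, acts in late flower growth and in the defence proteins that flowers accumulate, and ethylene, sugar import and loosening of cell walls accompany flower opening.

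The 6 sterile libraries held 502431 to 762879 assigned reads, with reads for 18089 to 18670 of the 34727 gene models. Unique assignments made up 98.7% to 99.5% of their reads, and 3.40% to 6.26% of reads fell on the 10 genes with most reads. Levels are given as CPM, counts per 1000000 assigned reads of the library, and 1 read was worth 1.31 to 1.99 CPM. Where no library of a group had a read, levels of up to 1.79 CPM at stage 3 and 1.54 CPM at stage 1 remain possible, a limit of 3 reads over the group. These limits, and the intervals given for read ratios, cover counting error only. On the first principal component of the 6 libraries, which held 43% of the variance, stage 3 libraries lay at 71.7, 33.9 and 7.9 and stage 1 libraries at -22.8, -47.5 and -43.2. Replicate 3 of stage 3 was therefore the stage 3 library nearest to stage 1.

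The label of male sterility was looked at in genes of the tapetum and of pollen. Solyc02g079810, which the tomato literature calls Ms10, had 0 reads in the 6 libraries and 2 reads, both in 1 library, at stage 2. In fertile buds it also had 0 reads in the 3 stage 3 libraries, and it stood at 37.3 and 28.5 CPM at stage 1. Solyc08g062780, the AMS gene of that literature, had 1 read at stage 3 and 0 at stage 1 in sterile buds, against 161, 28.02 and 69.3 CPM at stage 3 and 516 and 416 CPM at stage 1 in fertile buds. Both names are recalled from that literature and could not be matched to RefSeq. The 4 identifiers of the tapetum product list could not be matched either, and their levels are not given here. All 4 were tested in sterile buds, where 0 rose, 0 fell and the median log2 change was 1.57. Reads were therefore not absent from all 4 in sterile buds. MYB80 (Solyc10g005760), a regulator of the tapetum, had 0 reads in all 9 sterile libraries, stage 2 included. In fertile buds MYB80 had 1.28, 0 and 0 CPM at stage 3 and 6.67 and 35.2 CPM at stage 1. Of the 3 pollen genes, LAT52, a pollen protein, had 0 reads at stage 3 and 2 at stage 1, and the receptor kinase genes PRK1 and PRK2 had 0 reads at both stages. In fertile buds LAT52 stood at 5.12, 22.02 and 5.19 CPM at stage 3 and had 0 reads at stage 1. PRK1 had 0 reads at both stages of fertile buds too, and PRK2 had 1 read at stage 3 and 0 at stage 1, so these 2 genes did not set the lines apart.

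At an adjusted p under 0.05 in edgeR's quasi-likelihood test, with Benjamini-Hochberg adjustment over 13568 tested genes, 282 genes (2.08%) differed between stage 3 and stage 1 in sterile buds. Of these, 196 (1.44% of tested genes) rose and 86 (0.634%) fell. The median change was 4.14-fold among genes that rose and 3.07-fold among genes that fell. Without adjustment, 2298 genes (16.9%) had a p under 0.05. Library levels of the 2 stages did not overlap for 193 of the 196 and for all 86. Among all tested genes, 990 (7.30%) had every stage 3 library above every stage 1 library and 1999 (14.7%) every stage 3 library below. The balance of directions depended on the scaling: with total reads alone in place of composition factors, 162 genes rose and 176 fell, and the median change of all tested genes moved by -0.13 on the log2 scale, to -0.11. In whole buds, fewer cells of a type and less RNA per cell cannot be told apart.

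Gene names were used for 184 of 275 listed identifiers, and 156 of the 184 were tested. Of these, 10 rose and 2 fell, and the median log2 change was 0.37, against 0.02 over all tested genes. Over all tested genes 1.44% rose and 0.634% fell. The lists and their members were chosen with earlier results of these data known. A difference from all tested genes, here and in the lists below, can therefore come from that choice. Another 91 listed identifiers had no name that could be matched to RefSeq. Of these, 80 were tested, 8 rose and 0 fell. Their counts are given below, apart from the named members, for lists in which any rose and for the cell-cycle list. The members that passed are shown by library in the plot of their levels.

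**Figure D1:**
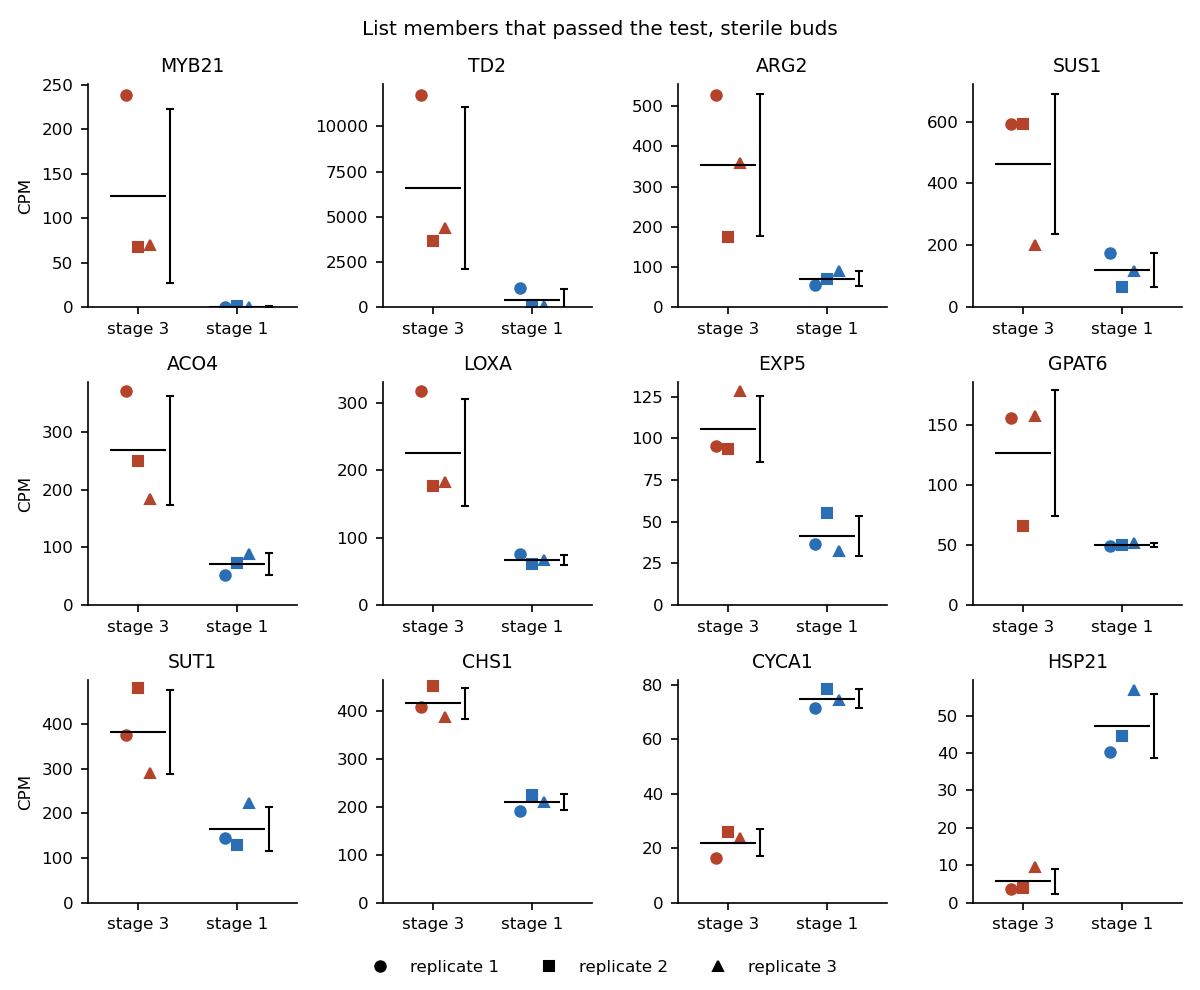
Levels (CPM, linear axes from 0) of the 12 listed genes that passed the test, in sterile buds of stage 3 (red) and stage 1 (blue). Symbols are libraries by replicate number, horizontal lines are means and side bars are the SD (n = 3), cut off at 0 where they reach below it. In all 12 genes the 3 libraries of 1 stage lie apart from the 3 of the other, and stage 3 replicate 1 is the highest library for MYB21, TD2, ARG2, ACO4 and LOXA.

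Jasmonate genes lay higher at stage 3, with 2 members past the test. Of the 15 tested genes of jasmonate synthesis and signalling, 2 rose, 0 fell and 13 did not pass, and the median log2 change was 1.16. Of 6 further tested identifiers of the list without a matched name, 3 rose as well. Among the named members a positive change was measured in 14 of the 15, and in 10 every stage 3 library lay above every stage 1 library. Over all tested genes the latter held for 7.30%. With total reads alone as the scaling, 13 of the 15 were positive. Summed over the list, the level was 2476 to 3459 CPM at stage 3 and 1233 to 1531 CPM at stage 1.

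MYB21 (Solyc02g067760) rose most among listed genes. Its Arabidopsis counterpart is a transcription factor that acts under jasmonate in the growth of stamens and petals. MYB21 stood at 239, 67.7 and 70.0 CPM in the 3 stage 3 libraries and at 0, 1.31 and 0 CPM in the stage 1 libraries. The groups did not overlap, and the stage 1 value above 0 is a single read. The ratio of reads, 208 at stage 3 over 1 at stage 1 and scaled for depth, was 242 (exact 95% binomial interval 43.0 to 9611), with an edgeR adjusted p of 0.0148. The fitted log2 change of 7.59 depends on how a group near 0 is handled: it was 9.36 without stage 1 replicate 2, the library with that read, and 6.71 without stage 3 replicate 1, the highest library, with edgeR adjusted p values of 0.131 and 0.0777.

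LOXA (Solyc08g014000), a lipoxygenase not assigned to the chloroplast route by which jasmonate is made, had 317, 177 and 183 CPM at stage 3 and 75.1, 60.3 and 66.5 CPM at stage 1. All 3 stage 3 libraries lay above the stage 1 libraries. Its log2 change was 1.88 ± 0.45 (SE, n = 3 each), or 3.69-fold, at an edgeR adjusted p of 0.0368.

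The enzymes of the route itself did not pass. LOXD, the chloroplast lipoxygenase that supplies it, had 631, 438 and 347 CPM at stage 3 and 307, 237 and 261 CPM at stage 1 (log2 change 0.94 ± 0.56 (SE), edgeR adjusted p = 0.423). AOC, allene oxide cyclase, had 317, 310.5 and 556 CPM at stage 3 and 138, 146 and 303 CPM at stage 1 (edgeR adjusted p = 0.197). OPR3, the reductase of the peroxisomal step, had 143, 183 and 124 CPM at stage 3 and 105, 101 and 115 CPM at stage 1 (edgeR adjusted p = 0.278). In all 3 genes the lowest stage 3 library lay above the highest stage 1 library. AOS1, an allene oxide synthase, had 21 reads at stage 3 and 2 at stage 1. LOXF, a further lipoxygenase, came closest to the threshold among the uncalled members, at 892, 358 and 340.2 CPM at stage 3 and 222, 125 and 242 CPM at stage 1 (edgeR adjusted p = 0.0556).

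In signalling, the jasmonate receptor gene COI1 had 49.5, 53.7 and 41.3 CPM at stage 3 and 48.9, 47.2 and 48.7 CPM at stage 1, and the groups overlapped. MYC2, a central transcription factor of the response, had 139, 183 and 98.6 CPM at stage 3 and 199, 159 and 120.0 CPM at stage 1, also with overlap. The repressor genes JAZ2 and JAZ3 had no overlap: JAZ3 stood at 211, 102 and 129 CPM at stage 3 and at 59.4, 53.7 and 58.4 CPM at stage 1 (log2 change 1.50 ± 0.51 (SE), edgeR adjusted p = 0.136). JAR1, which joins jasmonate to isoleucine, had 16.5, 43.8 and 25.4 CPM at stage 3 and 6.99, 17.04 and 17.8 CPM at stage 1 (edgeR adjusted p = 0.22).

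Defence proteins that jasmonate induces in tomato leaves included TD2, the most abundant of the named members that passed. Of the 5 tested wound and defence genes, 2 rose, 0 fell and 3 did not pass, with a median log2 change of 2.45, and 1 of 6 further identifiers without a matched name rose. TD2 (Solyc09g008670), a threonine deaminase that stays active in the gut of leaf-eating insects, had 11718, 3656 and 4363 CPM at stage 3 and 1071, 104 and 86.0 CPM at stage 1. Every stage 3 library exceeded every stage 1 library, while stage 1 replicate 1 lay far above the other two of its group. The log2 change was 4.12 ± 0.88 (SE), or 17.4-fold, at an edgeR adjusted p of 0.0254. It was 6.25 without stage 1 replicate 1 (adjusted p = 0.00858) and 3.40 without stage 3 replicate 1 (adjusted p = 0.125). In RPKM, which also divides by gene length and so allows genes to be compared, TD2 averaged 3679 ± 2497 at stage 3 and 235 ± 315 at stage 1 (SD, n = 3 each). By that mean level it ranked 15 of all gene models at stage 3 and 690 at stage 1, and it held 1.17% of all reads in the highest library.

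ARG2 (Solyc01g091170), an arginase of the same defence response, had 528, 175 and 358 CPM at stage 3 and 54.1, 70.8 and 89.2 CPM at stage 1. Its log2 change was 2.45 ± 0.61 (SE), or 5.48-fold, with an edgeR adjusted p of 0.0469. The neighbouring arginase gene ARG1 stood at 14.7, 11.9 and 15.9 CPM at stage 3 and 15.7, 11.8 and 21.1 CPM at stage 1, and its groups overlapped. LAPA1, the wound-induced leucine aminopeptidase, had 1020.2, 434 and 801 CPM at stage 3 and 201, 22.3 and 162 CPM at stage 1, without overlap, but did not pass (log2 change 2.70 ± 0.76 (SE), edgeR adjusted p = 0.0719). Its relative LAPA2 had 363, 334 and 308 CPM at stage 3 and 396, 339.5 and 318 CPM at stage 1. Of the LAPA1 reads only 19.1% were assigned uniquely, so its values may hold reads of a near-identical gene, whereas all reads of LAPA2, ARG1, ARG2 and TD2 were unique. Whether the change differs between members of a pair was not tested.

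Named cell-cycle genes lay lower at stage 3. Of 11 tested members with a name, 1 fell, 0 rose and 10 did not pass, with a median log2 change of -1.15. Of 4 further tested identifiers of the list without a matched name, 0 rose and 0 fell, with a median log2 change of -0.24. Over all 15 the median was -0.75. The change was negative in 10 of the 11, and in 9 every stage 3 library lay below every stage 1 library. Over all tested genes the latter held for 14.7%. The summed level of the named members was 259 to 453 CPM at stage 3 and 731 to 748 CPM at stage 1, and the highest of the stage 3 sums was that of replicate 3.

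CYCA1 (Solyc11g005090), an A-type cyclin active during DNA replication and the approach to mitosis, was the member that fell. It had 16.5, 25.9 and 23.8 CPM at stage 3 and 71.6, 78.6 and 74.6 CPM at stage 1. The libraries of each stage lay close together, with 22.1 ± 4.92 CPM at stage 3 and 75.0 ± 3.53 CPM at stage 1 (mean ± SD, n = 3 each). The log2 change was -1.62 ± 0.38 (SE), a 3.07-fold lower level, at an edgeR adjusted p of 0.0365. CDKB2, a kinase of mitosis, had 29.4, 45.8 and 84.3 CPM at stage 3 and 183, 172 and 144 CPM at stage 1 (edgeR adjusted p = 0.0905). CYCB1-2, a mitotic cyclin, had 3.67, 7.96 and 19.1 CPM at stage 3 and 47.2, 38.01 and 40.5 CPM at stage 1 (edgeR adjusted p = 0.0705). In both, stage 3 replicate 3 was the stage 3 library nearest to stage 1. The exception in sign was CCS52A, an activator of the complex that destroys mitotic cyclins, at 29.4, 9.95 and 22.3 CPM at stage 3 and 13.97, 14.4 and 16.2 CPM at stage 1, with overlap. These genes and the others set out below by their closeness to the threshold were picked after their values were seen.

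Genes of meristems and organ founding gave no call among 9 tested members, and their median log2 change was -0.35, with 3 positive and 6 negative. TKN1, a KNOX gene of meristems, had 5.50, 25.9 and 0 CPM at stage 3 and 27.9, 44.6 and 37.3 CPM at stage 1 (edgeR adjusted p = 0.129). The most abundant members were YABBY1a, a gene of lateral organs, with 58.7, 71.7 and 108.1 CPM at stage 3 and 97.8, 132 and 117 CPM at stage 1, and YABBY2a, with 106, 53.7 and 66.8 CPM at stage 3 and 43.7, 40.6 and 48.7 CPM at stage 1 (edgeR adjusted p = 0.136). Another 4 members were too low for the test. Among them, CRCa, a CRABS CLAW type gene of the carpel, had 0 reads at stage 3 and 22 at stage 1. That is 6.30-fold lower with the stage 3 group set at its limit of 3 reads. FALSIFLORA, the tomato LEAFY gene that gives flowers their identity, had 0 reads at stage 3 and 13 at stage 1, 3.72-fold lower at the same limit. ANANTHA, an F-box gene of floral identity, had 1 read at stage 3 and 16 at stage 1. For CRCa and FALSIFLORA each stage 1 library had reads and no stage 3 library did. The related gene CRCb, which was tested, had 14.7, 9.95 and 12.7 CPM at stage 3 and 5.24, 19.7 and 24.3 CPM at stage 1 (edgeR adjusted p = 0.863). WUS, a meristem gene, had 9.17, 11.9 and 23.8 CPM at stage 3 and 8.73, 9.18 and 4.87 CPM at stage 1 (edgeR adjusted p = 0.461). CRCb and WUS both overlapped between stages.

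Sugar handling, cell wall, cuticle, ethylene and flavonoid genes each gave 1 or 2 calls among named members, all of them higher at stage 3. Over all tested genes 1.44% were called higher. In the sugar list 2 of 13 tested members rose and 11 did not pass (median log2 change 0.65). SUS1 (Solyc12g009300), a sucrose synthase that opens imported sucrose to metabolism, had 593, 593 and 200.3 CPM at stage 3 and 176, 65.5 and 118 CPM at stage 1. The lowest stage 3 library, replicate 3, lay just above the highest stage 1 library. Its log2 change was 2.06 ± 0.40 (SE), or 4.17-fold, at an edgeR adjusted p of 0.0176. SUT1 (Solyc11g017010), the sucrose transporter of the phloem, had 374, 479.7 and 291 CPM at stage 3 and 145, 128 and 222 CPM at stage 1 (log2 change 1.33 ± 0.33 (SE), edgeR adjusted p = 0.0469). With total reads alone as the scaling SUT1 was not called (edgeR adjusted p = 0.0637). The cell-wall invertase gene LIN5, which is known from fruit and ovary, had 67.9, 15.9 and 9.54 CPM at stage 3 and 17.5, 14.4 and 21.1 CPM at stage 1, with overlap.

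Among 9 tested cell-wall genes 1 rose, 0 fell and 8 did not pass (median log2 change 0.95), and 1 of 3 identifiers of this list without a matched name rose (log2 change 1.99, edgeR adjusted p = 0.00162). EXP5 (Solyc02g088100), an expansin that loosens walls, had 95.4, 93.5 and 129 CPM at stage 3 and 36.7, 55.1 and 32.4 CPM at stage 1. Its groups were well apart and its log2 change was 1.49 ± 0.28 (SE), or 2.81-fold, at an edgeR adjusted p of 0.0158. EXP2, a relative, had 261, 157 and 272 CPM at stage 3 and 96.1, 140.3 and 159 CPM at stage 1, with overlap, and EXP18 had 89.9, 77.6 and 108.1 CPM at stage 3 and 115, 177 and 148 CPM at stage 1, below stage 1 in all 3 libraries but not past the test (edgeR adjusted p = 0.38). In the cutin and wax list 1 of 5 rose and 4 did not pass (median 0.98), and 1 of 5 identifiers without a matched name rose (log2 change 2.17, edgeR adjusted p = 0.00407). GPAT6 (Solyc09g014350), an acyltransferase of cutin synthesis, had 156, 65.7 and 157 CPM at stage 3 and 48.9, 49.8 and 51.9 CPM at stage 1, a log2 change of 1.49 ± 0.33 (SE) at an edgeR adjusted p of 0.0284. Its stage 1 libraries were almost equal, and replicate 2 was the lowest at stage 3. GPAT6 was not called in a fit of the 6 sterile libraries alone (edgeR adjusted p = 0.0554). CER6, which lengthens wax precursors, had 242, 113 and 114 CPM at stage 3 and 115, 48.5 and 51.9 CPM at stage 1 (edgeR adjusted p = 0.0786).

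Of 15 tested ethylene genes 1 rose, 0 fell and 14 did not pass (median log2 change 0.96). ACO4 (Solyc02g081190), an ACC oxidase that carries out the last step of ethylene synthesis, had 371, 251 and 184 CPM at stage 3 and 52.4, 72.1 and 89.2 CPM at stage 1. The log2 change was 2.04 ± 0.43 (SE), or 4.10-fold, at an edgeR adjusted p of 0.0246, and the groups were well separated. ACO3, another ACC oxidase, had 178, 133 and 44.5 CPM at stage 3 and 27.9, 10.5 and 30.8 CPM at stage 1 (edgeR adjusted p = 0.0901). The receptor gene ETR3 had 67.9, 55.7 and 54.1 CPM at stage 3 and 66.4, 55.1 and 61.6 CPM at stage 1, nearly the same level at both stages. In the flavonoid and anthocyanin list 1 of 9 rose and 8 did not pass (median 0.36). CHS1 (Solyc09g091510), chalcone synthase, the entry step of flavonoid synthesis, had 409, 452 and 388 CPM at stage 3 and 192, 225 and 211 CPM at stage 1. Its change was a small one with little spread, a log2 change of 1.12 ± 0.23 (SE) at an edgeR adjusted p of 0.0238. F3H, the hydroxylase that acts later in the same route, had 576, 583 and 657 CPM at stage 3 and 379, 353 and 394 CPM at stage 1 (edgeR adjusted p = 0.0673).

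HSP21 (Solyc03g082420), a small heat-shock protein of the chloroplast, fell. It had 3.67, 3.98 and 9.54 CPM at stage 3 and 40.2, 44.6 and 56.8 CPM at stage 1, with a wide gap between the groups. The log2 change was -2.82 ± 0.51 (SE), a 7.04-fold lower level, at an edgeR adjusted p of 0.013, and it was -3.49 without stage 3 replicate 3. The other 2 tested heat-stress genes did not pass: BIP, a chaperone of the endoplasmic reticulum, had 921, 575 and 440.4 CPM at stage 3 and 772, 434 and 263 CPM at stage 1, and HSFA1a, a heat-stress transcription factor, had 36.7, 69.7 and 58.8 CPM at stage 3 and 45.4, 72.1 and 55.1 CPM at stage 1. Overlap was seen in both.

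The largest changes lay in identifiers without a name in the sources used here. Solyc03g098720 had 2538, 99.5 and 377 CPM at stage 3 and 1.75, 3.93 and 1.62 CPM at stage 1, a ratio of summed reads of 389 (exact 95% binomial interval 166 to 1199, edgeR adjusted p = 0.0139). Its stage 3 libraries were widely spread, with replicate 1 highest, and without that library the fitted log2 change was 6.61 in place of 8.66 (edgeR adjusted p = 0.0684). Solyc10g050470 had 73.4, 79.6 and 60.4 CPM at stage 3 and 0 reads at stage 1 (edgeR adjusted p = 0.00218). With the stage 1 group set at its limit of 3 reads, it was 45.8-fold higher. It was even across stage 3 libraries and was called with any 1 of the 6 libraries left out. Among genes that fell, Solyc10g007860 had 0, 0 and 3.18 CPM at stage 3 and 33.2, 95.7 and 16.2 CPM at stage 1 (edgeR adjusted p = 0.0303). Its 2 reads at stage 3 came from replicate 3, without which the fitted log2 change was -7.92 in place of -5.02; without stage 1 replicate 2 it was -4.04 (edgeR adjusted p = 0.209). Solyc03g082430, whose identifier follows that of HSP21, had 0, 5.97 and 9.54 CPM at stage 3 and 90.8, 90.4 and 58.4 CPM at stage 1 (log2 change -3.72 ± 0.80 (SE), edgeR adjusted p = 0.0285). The change was -4.63 without stage 3 replicate 3.

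**Figure D2:**
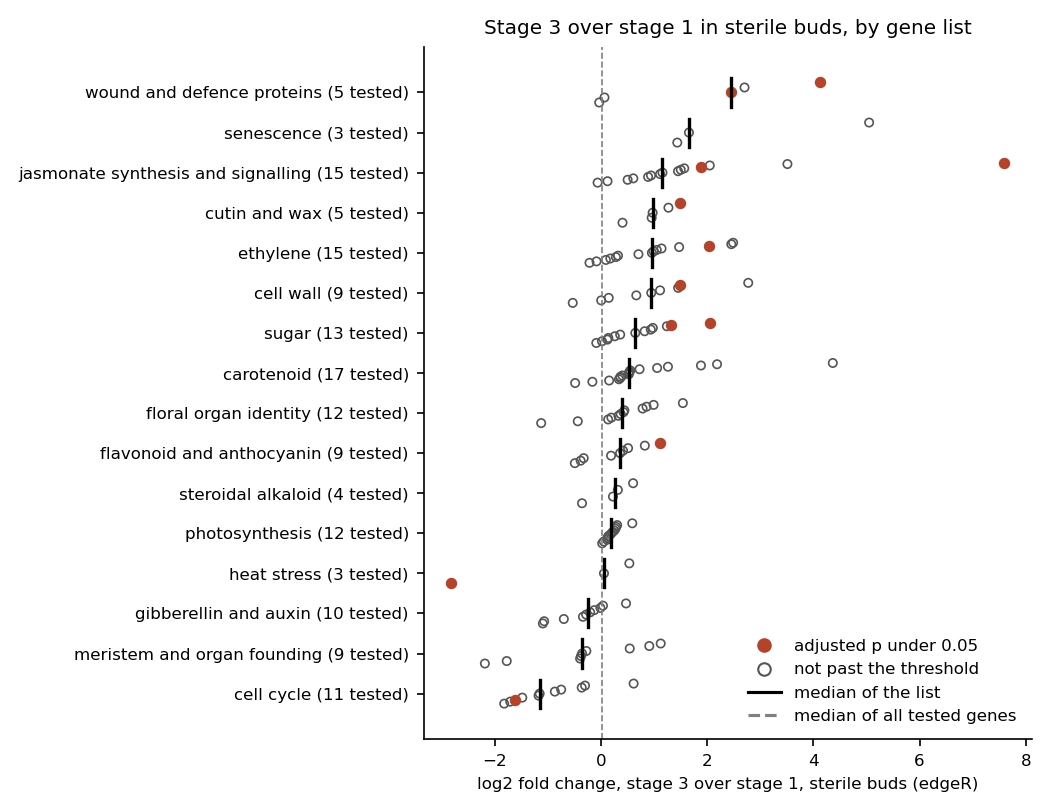
Log2 change of tested and named members of lists with 3 or more such members, stage 3 over stage 1 in sterile buds, as fitted by edgeR. Each circle is 1 gene, red where the adjusted p was under 0.05, with the list median as a black bar and the median of all tested genes (0.02) as a dashed line. Medians of the plotted lists run from -1.15 for cell-cycle genes to 2.45 for wound and defence proteins, and no plotted list has more than 2 red circles.

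Several programmes of the bud gave no call among named members, as the plot of changes by list shows. Of the 12 tested floral organ identity genes with a name none passed in edgeR, although 5 had an unadjusted p under 0.05 and in 6 every stage 3 library lay above every stage 1 library. Over all tested genes these shares were 16.9% and 7.30%. TAG1, the AGAMOUS-type gene of stamens and carpels, had 363, 289 and 243 CPM at stage 3 and 152, 159.9 and 180.0 CPM at stage 1 (edgeR adjusted p = 0.0606). TM29, a SEPALLATA-type gene, had 437, 307 and 386 CPM at stage 3 and 192, 250.4 and 279 CPM at stage 1 (edgeR adjusted p = 0.125). TAP3, the APETALA3-type gene of petals and stamens, had 484, 211 and 197 CPM at stage 3 and 166, 76.0 and 95.7 CPM at stage 1 (edgeR adjusted p = 0.0556). None of the 3 overlapped between stages, and the median log2 change of the named members was 0.40. Of 3 further identifiers of the list without a matched name, 1 rose (log2 change 1.18, edgeR adjusted p = 0.0389).

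The 17 tested carotenoid genes with a name also gave no call, with a median log2 change of 0.53. Of these, 7 had an unadjusted p under 0.05 in edgeR, against 16.9% of all tested genes. Of 3 without a matched name, 1 rose (log2 change 3.33, edgeR adjusted p = 0.033). DXS1, which feeds precursors into the route, had 325, 291 and 262 CPM at stage 3 and 265, 252 and 243 CPM at stage 1, and ZEP, zeaxanthin epoxidase, had 317, 374 and 208 CPM at stage 3 and 145, 155 and 169 CPM at stage 1 (edgeR adjusted p = 0.0678 for ZEP). CrtR-b2, the carotene hydroxylase known from yellow petals, spread most: it had 310.1, 105 and 12.7 CPM at stage 3 and 1.75, 1.31 and 19.5 CPM at stage 1 (edgeR adjusted p = 0.0569). Replicates 1 and 2 of stage 3 lay far above stage 1, and replicate 3 lay below stage 1 replicate 3. CYC-B, a lycopene cyclase of chromoplasts, showed the same order among stage 3 libraries, with 34.9, 9.95 and 3.18 CPM at stage 3 and 5.24, 1.31 and 4.87 CPM at stage 1.

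Photosynthesis genes, markers of green tissue, were highest in the libraries numbered 3 of both stages. The summed level of the list was 26158 CPM in stage 3 replicate 3 and 21019 CPM in stage 1 replicate 3, and in the other 4 libraries it was 10066 and 12435 CPM at stage 3 and 9483 and 14342 CPM at stage 1. All 12 tested members gave no call, at an edgeR adjusted p of at least 0.584, and none had an unadjusted p under 0.05. The fitted change was positive in all 12 (median log2 change 0.20), and in 7 of the 12 with total reads alone as the scaling (median 0.05). RBCS3B, a small subunit of Rubisco, had 2244, 3169 and 7574 CPM at stage 3 and 1745, 2898 and 4951 CPM at stage 1, and RBCS2A, another, had 1451, 1803 and 3930.1 CPM at stage 3 and 1511, 2163 and 3213 CPM at stage 1. The part of this difference in the results above was not tested beyond leaving those libraries out: without all libraries numbered 3, 110 genes rose and 116 fell, and 4 of the 12 listed genes that had passed were called, all 12 with the same sign.

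Steroidal alkaloid, gibberellin and auxin, senescence, pistil and housekeeping genes gave no call either. Their named members, taken as the most abundant of each list, stood as follows. GAME12, an enzyme of alkaloid synthesis, had 662, 918 and 1383 CPM at stage 3 and 880.3, 789 and 958 CPM at stage 1. GAME17, another, had 187, 277 and 553 CPM at stage 3 and 487, 486 and 478 CPM at stage 1. IAA9, an auxin response repressor, had 558, 523 and 544 CPM at stage 3 and 548, 609.5 and 637 CPM at stage 1. All 3 overlapped between stages. SGR1, which starts chlorophyll breakdown, had 16.5, 17.9 and 9.54 CPM at stage 3 and 3.49, 2.62 and 11.4 CPM at stage 1, and NAP2, a NAC factor of leaf senescence, had 3.67, 33.8 and 1.59 CPM at stage 3 and 1.75, 3.93 and 6.49 CPM at stage 1. STIG1, a secreted protein of the stigma, had 3.67, 5.97 and 44.5 CPM at stage 3 and 0, 0 and 1.62 CPM at stage 1, so that replicate 3 gave most of the stage 3 reads (edgeR adjusted p = 0.123). Of the genes often used as references, PP2Ac1, a phosphatase subunit, had 42.2, 41.8 and 41.3 CPM at stage 3 and 36.7, 55.1 and 40.5 CPM at stage 1, and RPL8, a ribosomal protein, had 154, 175 and 249.6 CPM at stage 3 and 224, 401 and 371 CPM at stage 1 (edgeR adjusted p = 0.31).

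Buds of stage 2 lay between the other two stages for nearly all called genes. The stage 2 mean lay between the stage 1 and stage 3 means for 191 of the 196 genes that rose and for all 86 that fell. The 3 stage 2 libraries had not gone equally far: 126, 68 and 106 of the 196 were past the midpoint in replicates 1, 2 and 3, and 40, 19 and 64 of the 86. Replicate 2 was the stage 2 library nearest to stage 1 in both sets. The libraries that define the midpoint are those that chose the genes, so the stage 3 and stage 1 counts carry no information, whereas stage 2 libraries entered only the shared spread of the fit. Genes chosen for a wide gap between stages 1 and 3 leave much room for a stage 2 mean in between. The share over all tested genes was not computed, so the count of means in between does not by itself show that stage 2 is intermediate.

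Single genes showed the same spread among stage 2 libraries. LOXA had 75.1, 60.3 and 66.5 CPM at stage 1, 367, 75.4 and 312 CPM at stage 2 and 317, 177 and 183 CPM at stage 3, so that replicates 1 and 3 of stage 2 were already at the stage 3 level and replicate 2 was not. TD2 had 5559, 1069 and 1839 CPM at stage 2, ARG2 had 609, 52.9 and 536 CPM and MYB21 had 25.5, 0 and 16.4 CPM. In ARG2 and MYB21 replicate 2 again stood at the stage 1 level. CYCA1 went another way: it had 69.6, 71.5 and 18.2 CPM at stage 2, with replicates 1 and 2 at the stage 1 level and replicate 3 at the stage 3 level. HSP21, at 11.9, 14.6 and 12.8 CPM, was even at stage 2 and lay between the others.

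**Figure D3:**
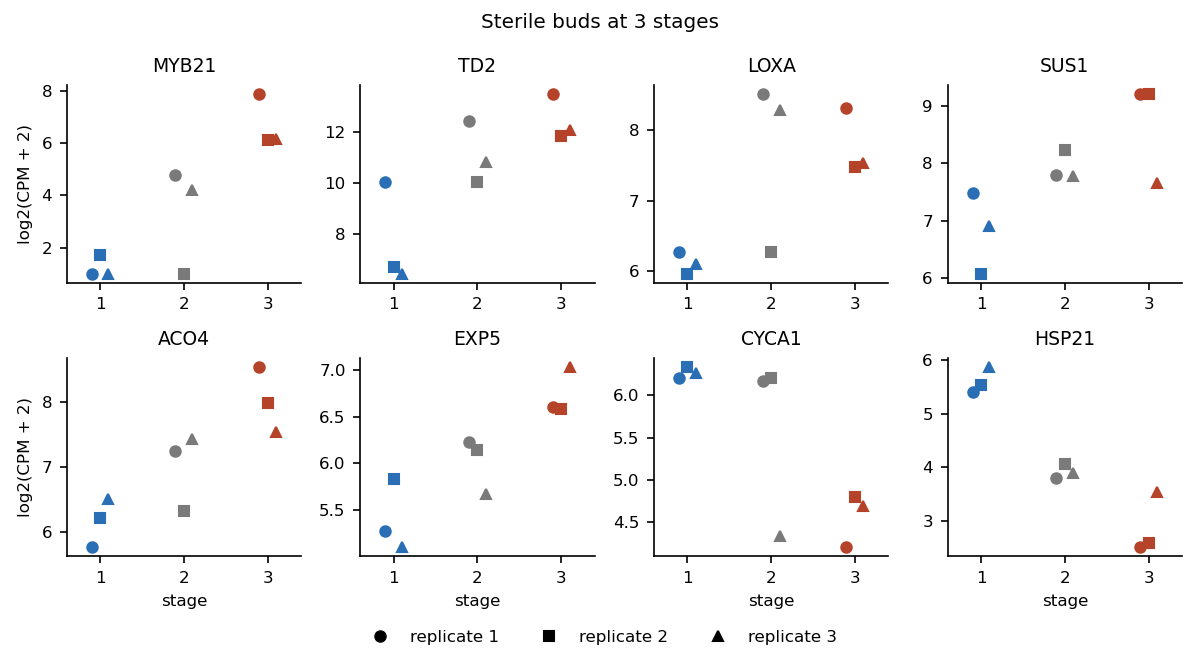
Levels of 8 listed genes in sterile buds of stages 1, 2 and 3, as log2(CPM + 2), a log scale on which 0 CPM plots at 1. Each symbol is 1 library and its shape is the replicate number. In MYB21, LOXA and ACO4 stage 2 replicate 2 lies at or near the stage 1 libraries, in CYCA1 stage 2 replicate 3 lies near stage 3, and HSP21 is intermediate in all 3 stage 2 libraries.

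The same contrast in fertile buds asked whether the sterile changes also occur in the male-fertile line. It used other libraries throughout, 3 at stage 3 and 2 at stage 1, and 856 genes were called (6.31% of those tested), 467 higher (3.44%) and 389 lower (2.87%). Of the 196 genes that rose in sterile buds, 194 changed in the same direction in fertile buds, and 128 were also called there, which is 65.3% of the sterile and 27.4% of the fertile set. Of the 86 that fell, 85 had the same direction and 58 were also called, which is 67.4% of the sterile and 14.9% of the fertile set. None was called in the opposite direction. Over all tested genes 71.1% had the same sign in both lines. Fertile stage 3 libraries were past the sterile midpoint for 181 to 183 of the 196 genes and for 84 or 85 of the 86, and fertile stage 1 libraries for 29 and 31 of the 196 and for 29 and 21 of the 86.

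Among the 12 listed genes, MYB21 had 123, 426 and 309.9 CPM in fertile buds of stage 3 and 0 reads in those of stage 1. TD2 had 12750.5, 8685 and 7599 CPM in fertile buds of stage 3 and 303 and 1061 CPM in those of stage 1. HSP21 had 1.28, 0 and 5.19 CPM in fertile buds of stage 3 and 26.7 and 57.1 CPM in those of stage 1. For these 3 genes the fertile change was also called (edgeR adjusted p = 0.00524, 0.033 and 0.00266). It was also called for LOXA, ARG2, SUS1 and GPAT6 (edgeR adjusted p = 0.0417, 0.0418, 0.0232 and 0.00289). CHS1 had 221, 276 and 248 CPM in fertile buds of stage 3 and 175 and 146 CPM in those of stage 1, and was not called there (edgeR adjusted p = 0.113). SUT1, ACO4, EXP5 and CYCA1 were likewise not called in fertile buds, at edgeR adjusted p values of 0.174, 0.116, 0.081 and 0.0789. Their log2 changes in fertile buds were 0.89, 1.31, 0.93 and -1.51, against 1.33, 2.04, 1.49 and -1.62 in sterile buds. The 2 fertile stage 1 libraries differed widely in some jasmonate genes, with 1033 and 198 CPM for LOXD and 84.0 and 1.68 CPM for AOS1.

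The difference between lines was tested directly, as the sterile change minus the fertile change. In edgeR 0 genes passed (lowest adjusted p 0.306), and 456 (3.36%) had an unadjusted p under 0.05, of which 9 were among the 196 and 7 among the 86. DESeq2 called 9 genes, and limma called 15 with a pseudocount of 0.1 CPM and 17 with 2 CPM. Some genes recurred, such as Solyc08g076790, called by DESeq2 and by limma with both pseudocounts. Solyc05g005550, also called by DESeq2 (DESeq2 adjusted p = 0.00204), did not pass in edgeR (adjusted p = 0.32). It rose in sterile buds (log2 change 5.64) and was not called in fertile buds (0.95, edgeR adjusted p = 0.421). None of the 156 tested named genes passed in edgeR, and 9 had an unadjusted p under 0.05. The 80 tested listed identifiers without a matched name gave 0 calls and 2 at an unadjusted p under 0.05. Of those 80, limma called 3 from the lists of anther regulators and tapetum products, 1 with a pseudocount of 0.1 CPM and 2 with 2 CPM. One of the 3 was Ms10 (log2 difference 4.11 with 2 CPM, limma adjusted p = 0.00358), which had 0 reads at both stages in sterile buds and fell in fertile buds (edgeR adjusted p = 0.0192). In edgeR the log2 difference had an SE of 20082 for Ms10 and 13582 for MYB80, which also had 0 reads at both sterile stages. The edgeR test could therefore not call such genes, and its 0 calls say nothing about them. NOR, a NAC factor known from fruit ripening, had no reads at stage 1 in either line and was picked after its values were seen. It had 14.7, 3.98 and 0 CPM in sterile buds of stage 3 and 0 reads in those of stage 1 (edgeR adjusted p = 0.18). In fertile buds it had 80.6, 130.1 and 97.0 CPM at stage 3 and 0 reads at stage 1 (edgeR adjusted p = 0.00471). The difference between these changes did not pass in edgeR. With 0 reads at stage 1 in both lines that test cannot tell whether the changes differ.

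**Figure D4:**
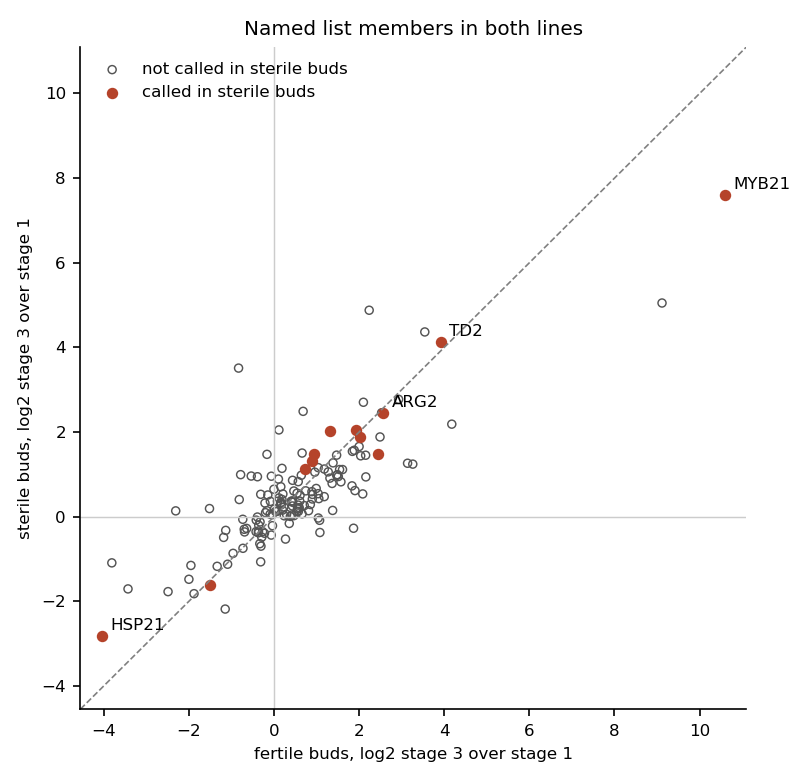
Log2 change of the 155 tested and named list members with reads in sterile buds, stage 3 over stage 1, in sterile buds (vertical axis) and fertile buds (horizontal axis), as fitted by edgeR. Red circles passed in sterile buds, open circles did not, and the dashed line marks equal change. All 12 red circles have the same sign in both lines.

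Which genes were called depended on single libraries. With 1 of the 6 sterile libraries left out at a time, the number that rose ran from 14, without stage 1 replicate 2, to 251, without stage 3 replicate 3. The number that fell ran from 4, without stage 1 replicate 2 or stage 3 replicate 1, to 222, without stage 3 replicate 3. In all 6 of these fits 13 of the 196 and 4 of the 86 were called. Of the 12 listed genes, 0 were called without stage 3 replicate 1 (edgeR adjusted p 0.0585 to 0.234) and 1, EXP5, without stage 1 replicate 2 (0.0457 to 0.251). Without stage 1 replicate 3 only HSP21 was called (0.0487 to 0.0961), and without stage 1 replicate 1 there were 3, TD2, HSP21 and SUS1 (0.00858 to 0.129). Without stage 3 replicate 2 and without stage 3 replicate 3, 10 of the 12 were called in each case. The sign of change of all 12 was the same in every one of these fits. DESeq2 called all 12. With limma, CYCA1, LOXA, ARG2, SUT1 and GPAT6 were not called with a pseudocount of 2 CPM (limma adjusted p 0.0545 to 0.0938), and with 0.1 CPM these 5 and also HSP21, SUS1 and ACO4 were not called (0.0591 to 0.124).

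**Figure D5:**
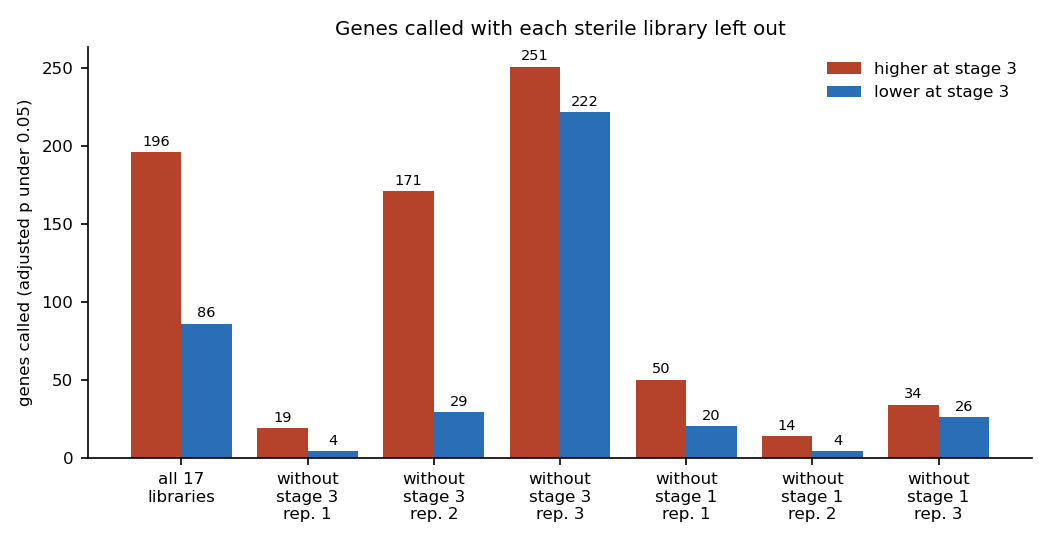
Genes called at an edgeR adjusted p under 0.05 with all 17 libraries and with each sterile library of stage 3 or stage 1 left out, as bars from 0 (red higher, blue lower at stage 3). Counts fall to 19 and 4 without stage 3 replicate 1 and to 14 and 4 without stage 1 replicate 2, and increase to 251 and 222 without stage 3 replicate 3.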

How the data were processed

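RNA sequencing libraries of tomato floral buds were analysed from 1 deposited table per library. Per the file headers, each table gives counts of all reads and of uniquely assigned reads for 34727 gene models, the gene length, and RPKM. The deposited RPKM values matched those computed from the total counts in all cases, with 0 differing by more than 1e-06 of their size. Lengths divide by 3 in 34726 models and are thus coding lengths. Aligner, counting program and strandedness: not given in the sources used here. Without known strand, reads of a gene and its antisense partner cannot be told apart. No table mixed samples (0 columns of other samples).

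The total counts went into edgeR 4.0.16 in R 4.3.3. The low-count filter (filterByExpr, 6 groups of line and stage) kept 13568 genes, which held no less than 97.0% of the reads of any library. TMM factors were 0.901 to 1.09. The quasi-likelihood fit used all 17 libraries with a coefficient for each group, leaving 11 residual degrees of freedom. The biological coefficient of variation was 0.291. Contrasts were sterile stage 3 minus stage 1, the same in fertile buds, and their difference, each adjusted by Benjamini-Hochberg over all tested genes at 0.05. The SE of a log2 change is its size divided by the square root of F. CPM (counts per 1000000 reads) was computed from total assigned reads, and overlap between stages was judged on CPM. A group with 0 reads was set at 3 reads, and the fold values from this limit leave out the counting error of the other group. Ratios of summed reads with an exact 95% interval were computed where both groups had reads, and are given for MYB21 and Solyc03g098720. PCR copies cannot be told from molecules, so intervals cover counting error only. The procedure was run on simulated counts in which all genes had the same spread and no library deviated. That run therefore does not cover the dependence of the calls on single libraries. Alternatives used DESeq2 1.42.0 and limma 3.58.1 on log2(CPM + 0.1) and log2(CPM + 2), among others.

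The members and the 21 gene lists were chosen with earlier results of these data known. Identifiers and names are recalled knowledge. RefSeq (assembly SLM_r2.1) holds 0 entries with such an identifier, so a name was kept only where RefSeq has that symbol on the same chromosome within 5% of relative gene order (184 of 275 identifiers; median difference 0.865%, largest 4.65%), which does not prove identity. Coding lengths were not compared. No name of the tapetum product list was kept (0 of 4). Named genes are the called members of each list, up to 6; where none was called, the 2 with the highest mean level, of which 1 is not reported here; and up to 2 further identifiers that rose and 2 that fell, chosen by size of change from called genes that averaged 5 CPM or more in 1 stage and did not overlap. Other genes named were chosen after their values were seen. Libraries of 1 group differed by more than counting error in every pair.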

Additional observations from a re-analysis of the deposited data

How the results depend on the processing

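Each count of called genes was recomputed under the alternatives. In sterile buds 353 genes rose and 175 fell without a low-count filter, 313 and 138 with DESeq2, 88 and 69 with limma on log2(CPM + 0.1), 130 and 162 on log2(CPM + 2), 162 and 176 with total reads alone, and 110 and 116 without all libraries numbered 3, against 196 and 86. With 1 sterile library left out, 14 to 251 rose and 4 to 222 fell. Median-ratio scaling, uniquely assigned reads, a stricter filter (10 CPM in 3 libraries) and a fit of the 6 sterile libraries alone stayed within 1.5 times for both directions. In fertile buds, 467 rose and 389 fell; 305 rose with limma on log2(CPM + 0.1), 16 rose and 12 fell without all libraries numbered 3, and 43 to 456 rose and 40 to 296 fell with 1 fertile library left out. Where stage 1 then held 1 fertile library, it was assumed to vary like the other groups. The difference between lines had 0 calls in each direction; 10 higher and 1 lower were called without a filter, 8 and 1 with DESeq2, 8 and 7 with limma on log2(CPM + 0.1), 13 and 4 on log2(CPM + 2), and 0 to 1 higher with 1 library left out. The cause of these shifts was not tested.

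Replicate numbers paired the sterile samples only in part. Correlations of same-numbered stage 3 and stage 1 libraries, taken after removal of group means, were 0.257, 0.0175 and 0.369. Stage 3 replicate 1 correlated best with stage 1 replicate 1 (-0.129 and -0.184 with replicates 2 and 3). Stage 3 replicate 3 correlated best with stage 1 replicate 3 (-0.414 and 0.108 with replicates 1 and 2). Stage 3 replicate 2 correlated best with stage 1 replicate 1 (0.191). An effect shared by same-numbered libraries was not tested beyond the block that follows. With the replicate number as a block, 399 genes rose and 277 fell in sterile buds, among them all 196 and 86 called without the block, 717 rose and 578 fell in fertile buds, and 3 genes were higher in the difference between lines. Of 271 values of the 16 called named genes under alternatives, 186 were past the threshold and 85 were not, with 0 changes of sign. At 502431 to 762879 reads per library, genes of a few CPM rest on a few reads, and those below the filter were not tested.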
